A study of Mus musculus with 38 samples.

Results

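Heme is broken down by a short chain of enzymes. A heme oxygenase opens the heme ring and releases iron, carbon monoxide and biliverdin, and a biliverdin reductase then turns biliverdin into bilirubin. *Hmox1* encodes the inducible heme oxygenase, a textbook target of the stress-responsive transcription factor NRF2 and of the heme-sensing repressor BACH1, and *Hmox2* encodes the constitutive heme oxygenase, which is the main form in neurons. *Blvra* encodes the biliverdin reductase of the adult pathway, and *Blvrb* encodes another, smaller enzyme that reduces biliverdin isomers and flavins with NADPH.

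These 4 genes were taken by their symbols from the count files, which list 23420 genes, and all 4 were present. They were chosen by their difference between dVenus+ and dVenus- cells of the same mouse in FC, NS and HC mice, so that difference is given for them as a description and without a test. The animals were adult male *Arc*::dVenus mice on a C57BL/6J background, in which the promoter of the activity-regulated gene *Arc* drives a destabilized fluorescent protein. Fear conditioned (FC) mice received tones and foot shocks in a chamber, no-shock (NS) mice went through the same protocol without shocks, and home cage (HC) mice never saw the chamber. On the next day 10 dVenus+ and 10 neighboring dVenus- granule cells of the dentate gyrus were aspirated from each mouse and each pool of 10 cells became 1 library, which gave 38 libraries from 12 FC, 4 NS and 3 HC mice.

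The 12 FC mice came from 3 experiments (2, 4 and 6 mice), and a further experiment held the NS and HC mice, so that levels in FC mice and in the other mice cannot be told apart from the experiment, whereas each dVenus+ library has a dVenus- library of the same mouse. Reads assigned to genes ranged from 1352288 to 18394761 per library with a median of 8013005. Of 9 granule cell markers, among them *Prox1* and *Calb1*, each reached 10 counts in at least 1 library of every group. This does not settle identity, since 13 to 15 of 15 microglial markers also did so in each group. *Arc* checked the reporter label. It lay between 476.6 and 1540 normalized CPM (counts scaled to a common library size) in FC dVenus+ libraries, and 9 of 12 FC dVenus- libraries held at most 2.13 CPM. The dVenus- libraries of FC mice 06, 07 and 14 held 107.8, 48.1 and 171.9 CPM of *Arc*, and the results that rest on FC mice are also given without these 3 mice. In 10 of the 14 NS and HC libraries the description label names another library than the title and the sample ID label do, and groups and mouse pairs follow the title. *Arc* separated the cell types as the titles give them, with 146.9 to 862 CPM in NS and 277.8 to 606.8 CPM in HC dVenus+ libraries against at most 4.33 and 4.96 CPM in dVenus- libraries, but it does not check which 2 libraries share a mouse. A pool of cells cannot tell fewer expressing cells from less RNA per cell.

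On the GRCm38.p6 assembly all 4 genes lie on the plus strand. *Hmox1* (Entrez 15368) spans chr8:75093618-75100593, *Hmox2* (15369) chr16:4726361-4766742, *Blvra* (109778) chr2:127070629-127097084 and *Blvrb* (233016) chr7:27447978-27465981. *Hmox2* overlaps *Cdip1* and *Blvra* overlaps the predicted gene *Gm31414*, and since the libraries carry no strand, reads in the overlaps cannot be told apart. No gene overlaps *Hmox1* or *Blvrb*.

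The start sites of both reductases are shown because *Blvrb* had the widest gap between the cell types and the levels of *Blvra* overlapped in every group. Each sequence covers 250 bases before and 50 bases after a RefSeq start site on the plus strand, at chr7:27447728-27448027 for *Blvrb* and at chr2:127070407-127070706 for *Blvra*. Capitals mark matches, on either strand, to 3 motifs, which are the GC box (GGGCGG), the CCAAT box (CCAAT) and the antioxidant response element (TGACNNNGC) through which NRF2 acts.
*Blvrb*: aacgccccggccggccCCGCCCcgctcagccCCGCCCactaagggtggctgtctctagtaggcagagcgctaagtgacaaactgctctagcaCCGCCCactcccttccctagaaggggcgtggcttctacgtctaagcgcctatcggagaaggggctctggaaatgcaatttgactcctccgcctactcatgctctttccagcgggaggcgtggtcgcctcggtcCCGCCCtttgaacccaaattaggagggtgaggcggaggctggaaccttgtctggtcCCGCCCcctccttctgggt
*Blvra*: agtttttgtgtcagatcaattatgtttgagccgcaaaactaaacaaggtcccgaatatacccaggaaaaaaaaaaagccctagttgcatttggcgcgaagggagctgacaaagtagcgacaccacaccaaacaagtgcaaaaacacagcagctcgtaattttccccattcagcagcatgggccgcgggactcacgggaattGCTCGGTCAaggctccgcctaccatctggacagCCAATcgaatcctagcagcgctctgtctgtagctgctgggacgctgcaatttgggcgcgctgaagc
The *Blvrb* window held 5 GC boxes and neither other motif, and 63% of its bases were G or C. The *Blvra* window held 1 antioxidant response element match, 49 bases before the start site, and 1 CCAAT box, 16 bases before it, and had 51% G or C. Of 32851 mouse promoter windows of this length, 35.7% held a GC box, 37.4% a CCAAT box and 12.4% an antioxidant response element match. The other *Blvrb* start site, at chr7:27452168-27452467, and the 3 windows of *Hmox2* held no antioxidant response element match. The cyclic AMP response element (TGACGTCA, in 1.79% of all windows) and its core (TGACG, 20.8%), the E-box (CACGTG, 7.15%) and the TATA motif (TATAAA, 13.6%) were searched on both strands too and had no match in either sequence. These matches describe letters only, and their use in these cells was not measured.

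Counted over all 38 libraries, *Hmox2* reached 10 counts in 31 libraries, *Blvrb* in 28, *Blvra* in 27 and *Hmox1* in 16. Levels between genes are compared per kilobase of exon. The median over all libraries was 15.9 CPM per kb for *Blvrb*, 13.9 for *Blvra*, 10.0 for *Hmox2* and 0.0734 for *Hmox1*. This order depended on the cell type. In the 19 dVenus+ libraries the median was 65.3 CPM per kb for *Blvrb* and 15.8 for *Blvra*, and in the 19 dVenus- libraries it was 1.50 for *Blvrb*, 13.7 for *Blvra* and 20.3 for *Hmox2*.

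**Figure D1:**
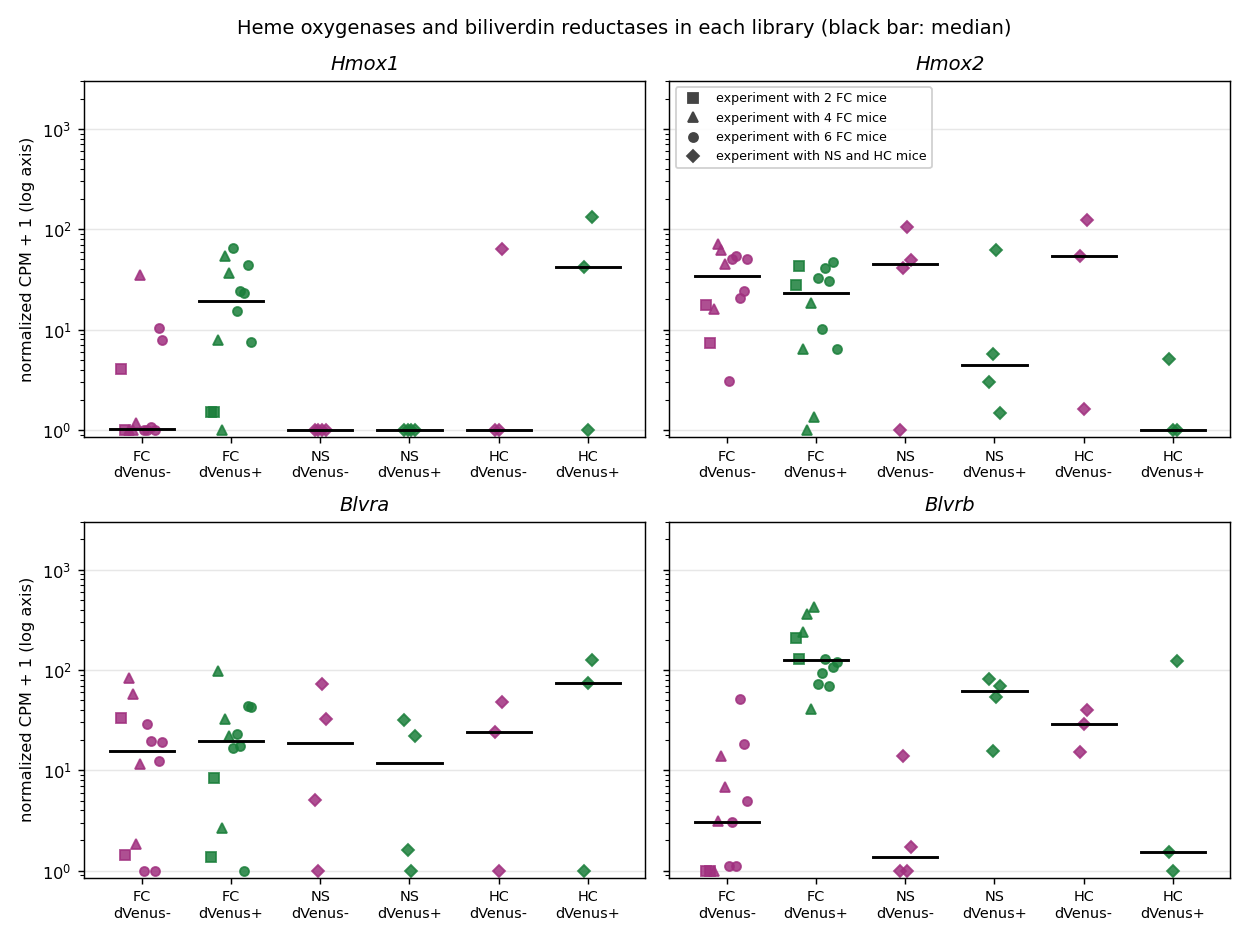
Normalized CPM plus 1 (log axis) of *Hmox1*, *Hmox2*, *Blvra* and *Blvrb* in each of the 38 libraries, by training group and cell type, with symbols for the experiments and a black bar at each group's median. *Blvrb* in FC dVenus+ libraries lies between 40.1 and 418.9 CPM, and *Hmox1* lies at 0 in all 8 NS libraries.

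*Blvrb* was the member with the widest gap between cell types. In FC mice its lowest, median and highest dVenus+ levels were 40.1, 123.6 and 418.9 CPM (mean 164.6 ± 119.2, SD, n = 12), and its dVenus- levels were 0, 2.07 and 50.0 CPM (7.87 ± 14.4, n = 12). The dVenus+ library was the higher one in 12 of 12 mice. Over all 12 mice the 2 cell types overlapped, because the dVenus- library of mouse 12, at 50.0 CPM, lay above the dVenus+ library of mouse 06, at 40.1 CPM.

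Within each of the 3 FC experiments the *Blvrb* levels of the cell types did not overlap. Neither did those of *Hmox2* in the experiment with 2 FC mice. The share of all genes without overlap was not counted, in these experiments or in NS mice, so no result is read from it. In the experiment with 2 FC mice the dVenus+ libraries held 128.2 and 206.9 CPM and both dVenus- libraries held 0. In the experiment with 4 FC mice the dVenus+ range was 40.1 to 418.9 CPM and the dVenus- range 0 to 13.0 CPM. In the experiment with 6 FC mice the ranges were 68.1 to 128.4 CPM and 0.105 to 50.0 CPM. The smallest difference was that of mouse 12, with 68.1 against 50.0 CPM.

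The within-mouse difference of *Blvrb* on the log2(CPM + 1) scale averaged 5.20 ± 2.47 (SD, n = 12) in FC mice, and its mean was 7.36, 5.56 and 4.23 in the experiments with 2, 4 and 6 mice. The paired edgeR fit gave a log2 fold change of 5.80 (SE 0.85). As background, 4.35% of all 9709 genes tested in FC mice passed an adjusted p under 0.05 by edgeR with an absolute log2 fold change over 1, and 1.50% passed in the higher direction. No call is read for the 4 genes themselves. Without mice 06, 07 and 14 the log2 fold change of *Blvrb* was 6.48 (SE 1.01), and the mean within-mouse difference was 5.59.

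In NS mice the *Blvrb* levels of the cell types did not overlap either, from which again no result is read. The dVenus+ libraries of mice 18 to 21 held 79.6, 14.6, 52.3 and 68.0 CPM (53.6 ± 28.3, SD, n = 4), and their dVenus- libraries held 0, 12.8, 0 and 0.720 CPM (3.39 ± 6.30). All 4 mice were higher in dVenus+ cells, although mouse 19 differed by only 14.6 against 12.8 CPM. The fitted log2 fold change was 5.02 (SE 1.94) and rested in part on single mice, with values from 4.18 to 7.94 when each was left out. It was 8.23 (SE 1.74) in DESeq2. Of all 8187 genes tested in NS mice 0.0489% passed the threshold of edgeR (0.0366% higher and 0.0122% lower).

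In HC mice *Blvrb* showed no such order. The dVenus+ libraries of mice 15, 16 and 17 held 0.549, 0 and 120.6 CPM (40.4 ± 69.5, SD, n = 3), and the dVenus- libraries held 14.2, 27.6 and 38.9 CPM (26.9 ± 12.4). The dVenus- library was the higher one in mice 15 and 16 and the lower one in mouse 17. The fitted log2 fold change was -1.71 (SE 2.33), and without mouse 17 it was -5.95. DESeq2 gave -4.37 (SE 1.93). Of all 7588 genes tested in HC mice 0.00% passed the threshold in edgeR, 532 genes had an unadjusted p under 0.05 and DESeq2 called 625.

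**Figure D2:**
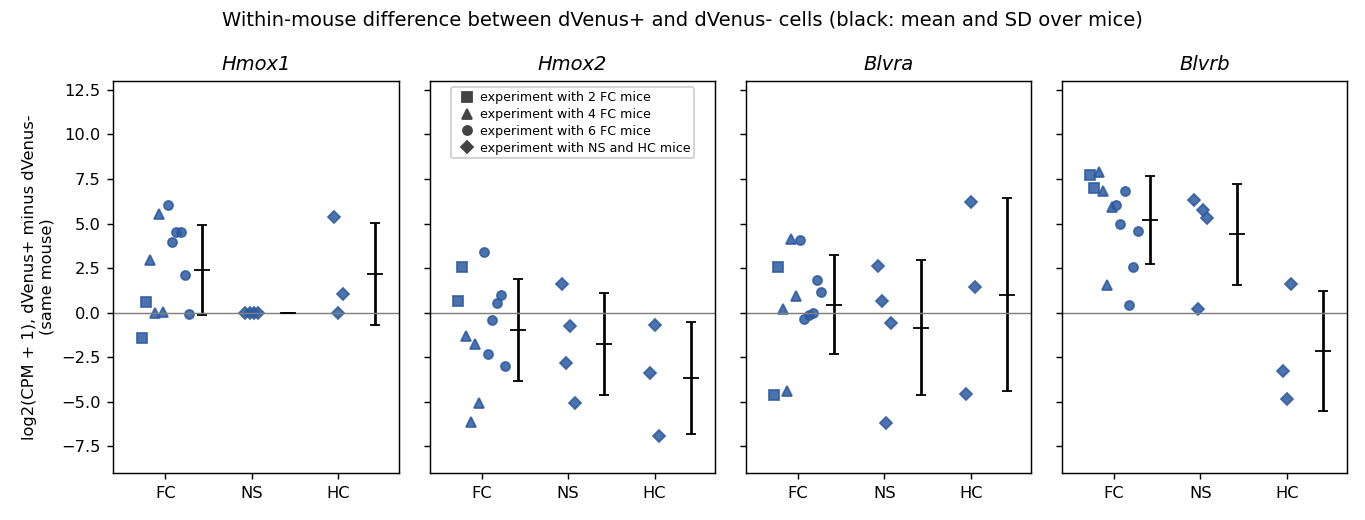
Difference in log2(CPM + 1) between the dVenus+ and the dVenus- library of the same mouse for the 4 genes in FC, NS and HC mice, with 1 symbol per mouse and the mean with SD in black. *Blvrb* is above 0 in all 12 FC and all 4 NS mice and below 0 in 2 of 3 HC mice.

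Ordered by mean, the *Blvrb* levels were 164.6 CPM in FC dVenus+ cells, 53.6 in NS dVenus+ cells, 40.4 in HC dVenus+ cells, 26.9 in HC dVenus- cells, 7.87 in FC dVenus- cells and 3.39 in NS dVenus- cells. The ranges of each group and its neighbor in this order overlapped. The change in FC mice exceeded the mean of the changes in NS and HC mice by 3.77 (SE 1.70) on the log2 scale for *Blvrb*, where the median over all genes tested was -0.50. In that comparison no gene among 14075 was called by edgeR (0.00%) and 1395 had an unadjusted p under 0.05, whereas DESeq2 called 1602. The DESeq2 value for *Blvrb* was 5.32 (SE 1.51). This difference is built from the differences that chose the genes and is given without a test, and the experiments differ along with the training.

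*Hmox1*, the inducible heme oxygenase, was detected unevenly. In FC dVenus+ libraries its lowest, median and highest levels were 0, 18.1 and 63.6 CPM (22.4 ± 21.8, SD, n = 12), and in FC dVenus- libraries they were 0, 0.0308 and 34.0 CPM (4.46 ± 9.83, n = 12). It reached 10 counts in 9 of 12 dVenus+ and in 4 of 12 dVenus- libraries. The dVenus+ library was higher in 9 mice, lower in mice 01 and 14, and at 0 together with its partner in mouse 05.

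The *Hmox1* difference varied with the experiment. Its mean on the log2(CPM + 1) scale was 2.39 ± 2.52 (SD, n = 12) over all FC mice, -0.42 in the experiment with 2 mice, 2.14 in that with 4 and 3.50 in that with 6. In the experiment with 2 mice all 4 libraries held at most 3.02 CPM. The fitted log2 fold change was 3.45 (SE 1.10), and leaving out single mice gave 3.01 to 4.19. DESeq2 gave 5.73 (SE 1.09) and the older quasi-likelihood method of edgeR 5.88 (SE 2.06). Without mice 06, 07 and 14 the mean difference was 2.58, and *Hmox1* then lay under the count filter of the fit.

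No read of *Hmox1* was counted in any of the 8 NS libraries, in neither cell type. The 3 counts that a count of 0 allows correspond to between 0.342 and 0.525 CPM in these libraries, a limit that covers counting error only. In HC mice the dVenus+ libraries of mice 15, 16 and 17 held 40.9, 0 and 130.1 CPM (57.0 ± 66.6, SD, n = 3), and the dVenus- libraries held 0, 0 and 61.9 CPM (20.6 ± 35.7). The HC libraries with a read were thus those of mice 15 and 17, and mouse 16 was at 0 in both cell types like the NS mice.

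Summed over libraries, *Hmox1* in HC dVenus+ cells (1131 counts in 3 libraries) was at least 502.3-fold higher than the limit of 3 counts over the 4 NS dVenus+ libraries, and in dVenus- cells (636 counts) at least 298.2-fold higher. Both bounds rest on few mice, the first on mice 15 and 17 and the second on mouse 17 alone. *Hmox1* was under the count filter of the comparison of NS with HC mice. Without the filter it was tested and not called (adjusted p = 0.43 in dVenus+ and 0.49 in dVenus- cells by edgeR).

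*Hmox2*, the constitutive heme oxygenase, was at 0 in 4 of 38 libraries, and its mean was lower in dVenus+ than in dVenus- cells in every training group, with overlap in each. In FC mice its lowest, median and highest levels were 0, 22.2 and 46.6 CPM in dVenus+ libraries (21.3 ± 17.1, SD, n = 12) and 2.10, 33.6 and 70.0 CPM in dVenus- libraries (34.2 ± 22.9, n = 12). The fitted log2 fold change was -0.73 (SE 0.80). The direction depended on the experiment, since *Hmox2* was lower in dVenus+ cells in all 4 mice of 1 experiment, higher in both mice of another and higher in 3 of 6 mice of the third. Without mice 06, 07 and 14 the log2 fold change was 0.07 (SE 0.85).

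In NS mice 18 to 21 the dVenus+ libraries held 2.02, 4.77, 61.7 and 0.467 CPM of *Hmox2* and the dVenus- libraries 0, 40.5, 104.4 and 48.0 CPM. In HC mice 15 to 17 the dVenus+ libraries held 4.11, 0 and 0 CPM and the dVenus- libraries 53.3, 0.605 and 121.5 CPM. *Hmox2* was thus lower in the dVenus+ library of 3 of 4 NS and 3 of 3 HC mice. The fitted log2 fold changes were -1.99 (SE 1.69) in NS and -5.94 (SE 2.82) in HC mice.

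*Blvra*, the main biliverdin reductase, did not separate the cell types in any group. In FC mice its lowest, median and highest levels were 0, 18.7 and 96.6 CPM in dVenus+ libraries (24.7 ± 27.0, SD, n = 12) and 0, 14.7 and 82.8 CPM in dVenus- libraries (21.6 ± 25.5, n = 12). It was higher in the dVenus+ library of 7 mice, lower in 4 and at 0 in both libraries of mouse 12. The fitted log2 fold change was 0.70 (SE 0.87) in FC mice, -0.69 (SE 2.06) in NS mice and 1.14 (SE 2.44) in HC mice, each smaller than its error. Without mice 06, 07 and 14 it was 0.02 (SE 1.00) in FC mice.

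In NS mice 18 to 21 the dVenus+ libraries held 31.0, 0.596, 0 and 20.8 CPM of *Blvra* and the dVenus- libraries 4.12, 0, 71.8 and 31.6 CPM. In HC mice 15 to 17 the dVenus+ libraries held 0, 73.5 and 126.0 CPM and the dVenus- libraries 23.1, 0 and 46.8 CPM. In both groups some mice were higher and some lower in dVenus+ cells.

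The shares of *Hmox1* beside *Hmox2* and of *Blvrb* beside *Blvra* were set per kilobase, in libraries with at least 10 counts of the pair. They compare RNA only. *Blvra* encodes the reductase of the adult pathway and *Blvrb* another enzyme, so the shares of this pair do not describe 1 enzyme step. *Blvrb* made up a median of 84.4% of the summed *Blvrb* and *Blvra* level in FC dVenus+ libraries (54.3% to 100%, 12 libraries) and 11.6% in FC dVenus- libraries (0% to 100%, 10 libraries). In NS mice the medians were 85.5% in dVenus+ and 1.04% in dVenus- libraries. *Blvrb* exceeded *Blvra* in 12 of 12 FC and 4 of 4 NS dVenus+ libraries, and in 3 of 10 FC and 1 of 4 NS dVenus- libraries. HC mice had the other order, with a median of 23.5% in 2 dVenus+ and 43.6% in 3 dVenus- libraries, and *Blvrb* exceeded *Blvra* in 0 and 1 of them.

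*Hmox1* made up a median of 62.7% of the heme oxygenase signal in FC dVenus+ libraries (1.59% to 99.3%, 11 libraries) and 0.0785% in FC dVenus- libraries (0% to 51.6%, 12 libraries). It exceeded *Hmox2* in 8 of 11 dVenus+ and in 1 of 12 dVenus- libraries. In the NS libraries with reads of the pair the share was 0%, and in the 2 usable HC dVenus+ libraries it was 93.2% and 100%. In FC mice the larger median share was thus that of *Hmox1* and *Blvrb* in dVenus+ cells and that of *Hmox2* and *Blvra* in dVenus- cells.

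**Figure D3:**
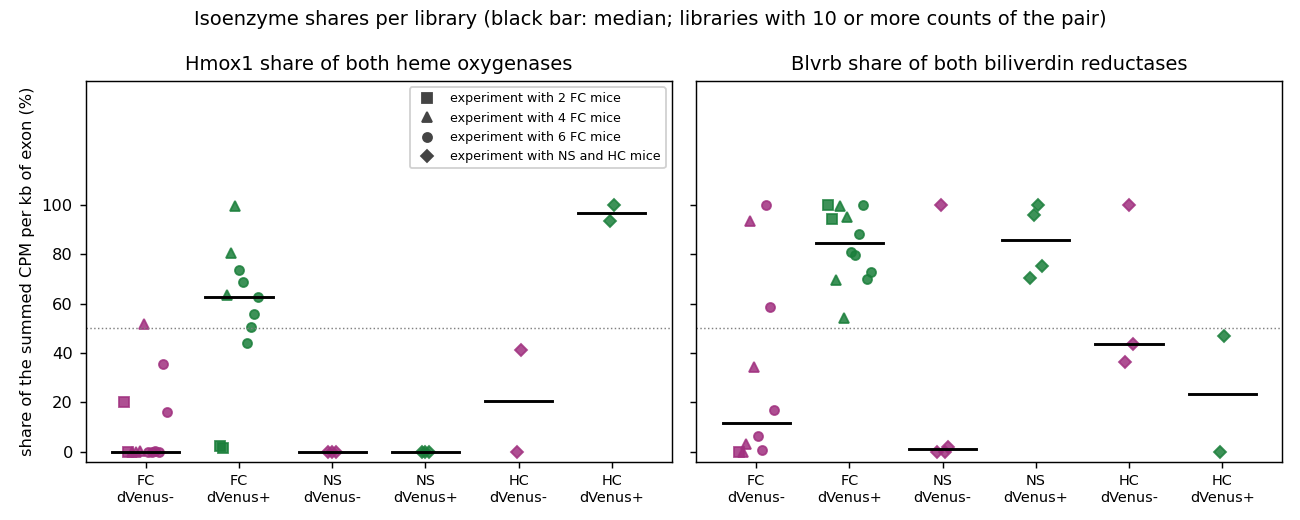
Share of *Hmox1* in the summed CPM per kb of both heme oxygenases (left) and of *Blvrb* in that of both biliverdin reductases (right), in percent, for each library with at least 10 counts of the pair, with the group medians in black. All 12 FC dVenus+ libraries lie above the dotted 50% line for *Blvrb*, against 3 of 10 FC dVenus- libraries.

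NS mice and HC mice were prepared together, and their levels were compared within each cell type, a comparison the choice of genes did not use. In dVenus- cells the log2 fold change of NS over HC mice was -3.34 for *Blvrb* (SE 1.92, 95% interval -7.20 to 0.52, adjusted p = 0.64 by edgeR), 0.22 for *Blvra* (SE 1.65, adjusted p = 0.99) and -0.27 for *Hmox2* (SE 1.41, adjusted p = 0.98). In dVenus+ cells it was 0.32 for *Blvrb* (SE 1.41, adjusted p = 0.98), -2.35 for *Blvra* (SE 1.55, adjusted p = 0.71) and 3.75 for *Hmox2* (SE 2.01, adjusted p = 0.62). None of the 3 genes tested was called in either cell type, and neither was any of 8547 genes in dVenus- cells or 8706 in dVenus+ cells (0.00% each). Unadjusted p-values under 0.05 were given to 756 and 773 genes, and DESeq2 called 144 and 110. The interval of *Blvrb* in dVenus- cells is wide enough to hold a change of many fold as well as none.

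The 4 genes were set in the wider pathway with 8 fixed lists of 99 genes on heme synthesis, heme transport and binding, iron, electron donors, bilirubin handling, carbon monoxide and nitric oxide signaling, NRF2 and BACH regulators, and other NRF2 targets. In FC mice 64 of the 99 genes could be tested, of which 1 was higher and 2 were lower in dVenus+ cells, beside 1.50% and 2.84% of all genes. The gene that rose was *Srxn1*, which encodes sulfiredoxin, an NRF2 target that repairs oxidized peroxiredoxins. The genes that fell were *Alad*, the second enzyme of heme synthesis, and *Hebp1*, a small heme-binding protein.

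*Srxn1* had a lowest, median and highest level of 2.25, 208.3 and 545.0 CPM in FC dVenus+ libraries and of 0, 23.2 and 67.2 CPM in dVenus- libraries, and was higher in 11 of 12 mice (log2 fold change 3.25, SE 0.66, adjusted p = 0.00437 by edgeR). *Alad* had 0, 1.86 and 18.5 CPM in dVenus+ and 0.217, 20.8 and 137.2 CPM in dVenus- libraries, and was lower in 11 of 12 mice (log2 fold change -3.19, SE 0.84, adjusted p = 0.0236). *Hebp1* had 0, 0.161 and 16.9 CPM in dVenus+ and 0.414, 11.6 and 31.3 CPM in dVenus- libraries, and was lower in 12 of 12 mice (log2 fold change -3.20, SE 0.82, adjusted p = 0.0195).

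*Srxn1* was called by edgeR with any 1 mouse left out and without mice 06, 07 and 14 (adjusted p = 0.042), but not by the older quasi-likelihood method of edgeR (adjusted p = 0.0681). *Alad* lost its call without mouse 06 (adjusted p = 0.0536 by edgeR), without mouse 13 (0.0589), without mice 06, 07 and 14 (0.174) and by the older method (0.172). *Hebp1* lay under the count filter without mouse 07, 11 or 13 and without mice 06, 07 and 14, and lost its call without the filter (adjusted p = 0.0535 by edgeR), without the mouse block (0.0622) and by the older method (0.0669). None of the 3 was called in the experiments with 4 or with 6 mice taken alone. In NS and HC mice *Srxn1* was higher in 3 of 4 and 2 of 3, *Alad* lower in 2 of 4 and 1 of 3, and *Hebp1* lower in 3 of 4 and 3 of 3.

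By list, heme synthesis had 9 of 9 enzymes tested in FC mice with 1 lower and a median log2 fold change of -0.82, beside -0.11 over all genes. Its most abundant member, *Fech*, the enzyme that inserts iron into heme, had a log2 fold change of -1.34 (SE 0.94, adjusted p = 0.49 by edgeR). Heme transport and binding had 11 of 17 genes tested with 1 lower and a median of 0.36. *Pgrmc1*, its most abundant gene, which encodes a heme-binding membrane protein, was higher in 11 of 12 FC mice without passing the test (log2 fold change 1.15, SE 0.40, adjusted p = 0.098), and in 0 of 4 NS and 1 of 3 HC mice.

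No gene of the iron list was called in FC mice (14 of 19 tested, median 0.32). Its most abundant gene *Fth1*, the ferritin heavy chain that stores iron released by heme oxygenases, had a log2 fold change of 0.05 (SE 0.25) in FC mice. In NS and HC mice *Fth1* was lower in dVenus+ cells in 4 of 4 and 3 of 3 mice, with log2 fold changes of -1.18 (SE 0.41, adjusted p = 0.49 by edgeR) and -1.39 (SE 0.49, adjusted p = 0.68) that did not pass the test. Of the electron donors, 7 of 10 genes were tested and none was called (median -0.13), and *Cyb5r3*, a cytochrome b5 reductase, had 0.24 (SE 0.72).

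Of the NRF2 and BACH regulators, 6 of 10 genes were tested and none was called (median 0.86), and *Nfe2l1*, an NRF2 relative, had a log2 fold change of -0.05 (SE 0.67). Of the other NRF2 targets, 11 of 14 were tested with 1 higher and a median of 0.83. *Sqstm1*, which encodes the autophagy receptor p62 and had the highest counts of that list, was higher in 11 of 12 FC mice, again without passing the test (log2 fold change 0.98, SE 0.31, adjusted p = 0.062 by edgeR), and in 2 of 4 NS and 0 of 3 HC mice. In carbon monoxide and nitric oxide signaling 5 of 12 genes were tested and none was called (median 0.38), with 0.38 (SE 0.44) for *Gucy1b3*, a subunit of the gas-sensing guanylyl cyclase. Of the bilirubin handling genes only the exporter *Abcc1* of 8 could be tested (log2 fold change 1.81, SE 1.01, adjusted p = 0.36).

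In FC mice 18 of the 64 pathway genes had an unadjusted p under 0.05 by edgeR, beside 1724 of all 9709 genes. None of the 56 pathway genes tested in NS mice and none of the 48 in HC mice was called by edgeR, with 5 and 3 at an unadjusted p under 0.05. Of all 8187 genes tested in NS mice 710 had such a p, and the counts over all genes in the other comparisons are given above. The change in FC mice relative to unshocked mice was called for none of 83 pathway genes, with 11 at an unadjusted p under 0.05. Between NS and HC mice none of 58 genes was called in dVenus- cells and none of 59 in dVenus+ cells, with 8 and 5 at an unadjusted p under 0.05. In simulated data these comparisons recovered few or none of the changed genes, so the lack of calls does not show a lack of change.

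**Figure D4:**
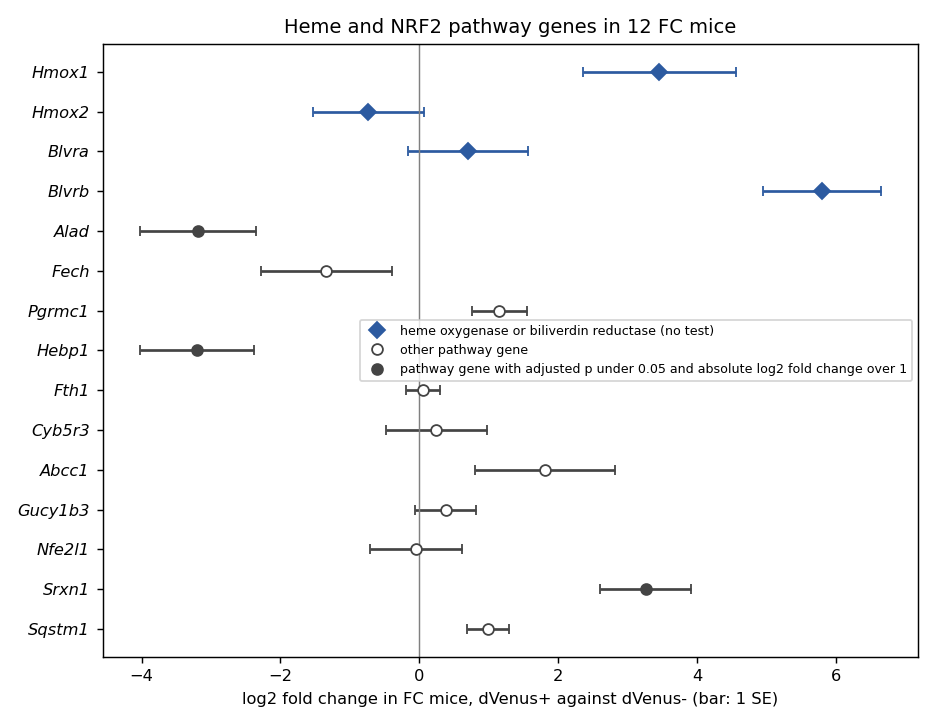
Log2 fold change between dVenus+ and dVenus- cells in the 12 FC mice, with 1 SE, for the 4 heme breakdown genes (blue diamonds, without a test) and the named genes of the pathway lists (gray circles), where a filled circle marks an adjusted p under 0.05 with an absolute log2 fold change over 1. *Srxn1* lies at 3.25, and *Alad* and *Hebp1* lie at -3.19 and -3.20.

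Microglial and granule cell markers differed with the reporter in FC mice, and their sums went the same way in most or all NS and HC mice. Of 12 FC mice, the endothelial marker sum was higher in dVenus+ cells in 2, the astrocyte sum in 3 and the oligodendrocyte sum in 4. The macrophage sum was higher in 4, the erythroid sum in 5, the interneuron sum in 6 and the oligodendrocyte precursor sum in 7. Of 4 interneuron markers tested *Npy* rose and *Gad1* fell (log2 fold changes 5.18 and -2.03). *Npy* lost its call without the mouse block and without mice 06, 07 and 14 (adjusted p = 0.064 by edgeR). *Gad1* kept its call without these 3 mice (0.036). It lost the call by the older method, without the count filter (0.086) and when some single mice were left out, such as mouse 10 (0.135). The summed level of 15 microglial markers had a lowest, median and highest value of 54.3, 382.8 and 2717 CPM in FC dVenus+ libraries and of 2.50, 63.6 and 1299 CPM in dVenus- libraries, and was higher in dVenus+ cells in 10 of 12 FC, 3 of 4 NS and 3 of 3 HC mice. Of 12 microglial markers tested in FC mice 5 rose, which were *Csf1r*, *C1qa*, *C1qc*, *Aif1* and *Tyrobp*, with log2 fold changes from 3.52 to 4.51. Of these 5 only *Tyrobp* was called without mice 06, 07 and 14 or by the older quasi-likelihood method, none was called without the mouse block, and each lost its call when some single mouse was left out, *Csf1r* because it fell under the count filter without mouse 05, 06 or 07. The summed granule cell markers were 309.0, 967.7 and 2607 CPM in dVenus+ and 1580, 2394 and 4344 CPM in dVenus- libraries, and 6 of 9 fell, among them *Calb1* (log2 fold change -3.01, SE 0.50). Of these 6, *Calb1* and *Camk2a* were called without the 3 mice, and *Calb1* and *C1ql2* without the mouse block. By the older method only *Calb1* was called, and *Plk5*, *Stxbp6* and *Neurod1* lost their calls when some single mouse was left out.

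As background, *Hmox1* is well known in macrophages and microglia, and *Blvrb* as a flavin reductase of red blood cells. The FC dVenus+ libraries with the highest *Blvrb*, those of mice 07, 05, 04 and 01 at 418.9, 357.9, 238.3 and 206.9 CPM, had microglial sums of 2040, 1139, 1026 and 821.7 CPM, which were 4 of the 5 highest sums of that group. The highest sum, 2717 CPM in mouse 09, went with 70.9 CPM of *Blvrb* and 63.6 CPM of *Hmox1*, the highest *Hmox1* level of that group. The FC dVenus+ libraries with the lowest microglial sums, those of mice 12, 03 and 13 at 54.3, 58.1 and 79.7 CPM, held 68.1, 128.2 and 105.7 CPM of *Blvrb* and 21.9, 0.497 and 42.8 CPM of *Hmox1*. The HC dVenus+ libraries of mice 15, 16 and 17, with microglial sums of 1886, 1469 and 586.4 CPM, held 0.549, 0 and 120.6 CPM of *Blvrb*. Their *Hmox1* levels were 40.9, 0 and 130.1 CPM. The NS dVenus+ libraries of mice 18 to 21 had microglial sums of 105.2, 669.1, 1953 and 1255 CPM. They held 79.6, 14.6, 52.3 and 68.0 CPM of *Blvrb* and no read of *Hmox1*. Of 6 macrophage markers *Mrc1* and *Pf4* were at 0 in all FC libraries, and the summed level had a median of 2.58 CPM in FC dVenus+ and 3.68 CPM in FC dVenus- libraries. The highest sum of 6 erythroid markers was 47.1 CPM, in the FC dVenus+ library of mouse 07, which also held the most *Blvrb*. Among FC dVenus- libraries the highest erythroid sum, 26.2 CPM, was that of mouse 12, again the library with the most *Blvrb* of its group. In the FC dVenus+ libraries of mice 05, 04, 03 and 09 the erythroid sum was 0, beside 357.9, 238.3, 128.2 and 70.9 CPM of *Blvrb*. In HC mice, the dVenus+ library of mouse 17 had an erythroid sum of 23.5 CPM with 120.6 CPM of *Blvrb*. The HC dVenus- library of mouse 16 had 38.1 CPM with 27.6 CPM of *Blvrb*. Both alpha-globin genes were listed at 0 in every library, which is uncertain since they are near-identical copies and only uniquely aligned reads were counted. The part of microglial and of erythroid RNA in the levels of *Blvrb* and *Hmox1* was not tested.

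**Figure D5:**
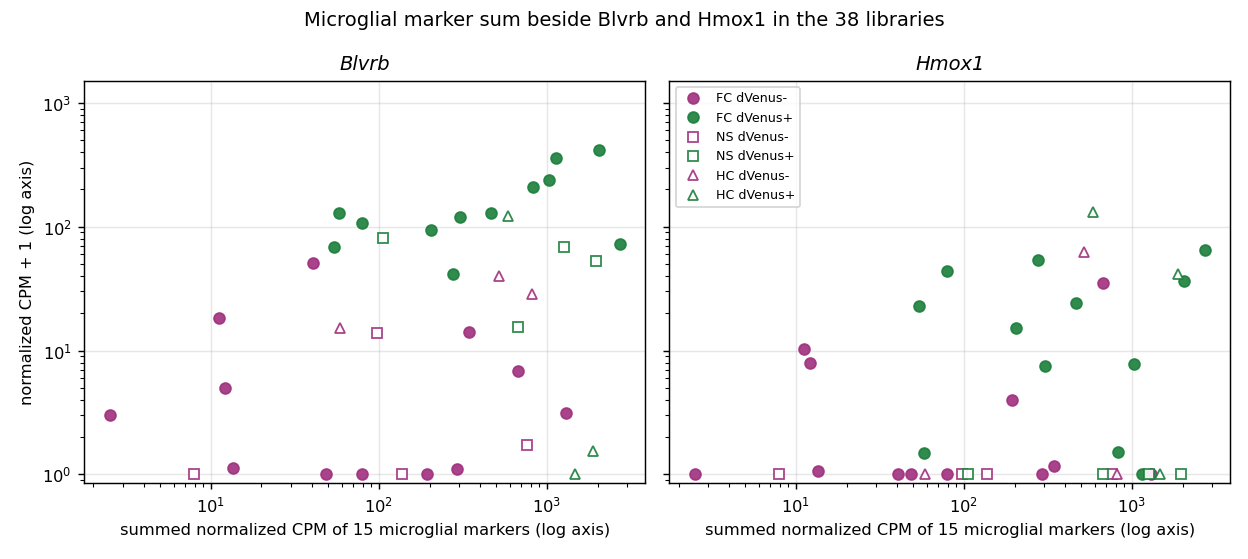
Summed normalized CPM of 15 microglial markers (x, log axis) against normalized CPM plus 1 (y, log axis) of *Blvrb* (left) and *Hmox1* (right) in the 38 libraries, colored by cell type and with a symbol for each training group. Of the FC dVenus+ libraries, those of mice 12, 03 and 13, at microglial sums of 54.3 to 79.7 CPM, hold 68.1 to 128.2 CPM of *Blvrb*, and those of mice 07, 05, 04 and 01, at 821.7 to 2040 CPM, hold 206.9 to 418.9 CPM.

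As a description of likeness, log2 CPM was correlated between each member and 11263 genes over the 38 libraries, which share their reporter label, mouse and depth. *Blvrb* was most like *Arc* (Pearson r = 0.71), *Psmc4* (0.71), a subunit of the proteasome, and *Nptx2* (0.64), a synaptic pentraxin induced by activity. *Arc* and *Blvrb* both differ between the cell types, and within the 19 dVenus+ libraries alone the r with *Arc* was 0.53 while that with *Psmc4* was 0.90. Within the 19 dVenus- libraries alone these values were 0.44 and 0.26. *Psmc4* lies on the same chromosome at chr7:28041702-28050092, 575.7 kb from *Blvrb* with 30 annotated genes between them. Of the 6 genes within 100 kb of *Blvrb* that were tested in FC mice none was called, with log2 fold changes from -0.65 to 1.74.

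*Hmox1* was most like *Ptch1* (r = 0.64), *Erlin1* (0.63) and *Epha10* (0.61), *Hmox2* most like *Krt10* (0.82), *Praf2* (0.80) and *Tctex1d2* (0.79), and *Blvra* most like *Tusc3* (0.65), *Psmc2* (0.65) and *Clta* (0.62). Among the 4 members the closest pair over the 38 libraries was *Hmox1* with *Blvrb* (r = 0.41), and the other pairs lay between -0.06 and 0.27. The r of *Hmox1* with *Blvrb* was 0.14 over the 19 dVenus+ and 0.34 over the 19 dVenus- libraries. The closest pair was *Hmox1* with *Blvra* (0.25) within dVenus+ libraries and *Hmox2* with *Blvra* (0.51) within dVenus- libraries. Since *Blvrb* was higher in dVenus+ cells in 12 of 12 FC mice, the 9 with higher *Hmox1* cannot show whether both genes go together. In NS mice *Hmox1* was at 0 in both cell types, and *Blvrb* was higher in dVenus+ cells in 4 of 4.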

How the data were processed

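Each library held the pooled contents of 10 cells. Per the labels and the study's methods, full-length cDNA was made with SmartSeq2 and Nextera XT, single reads were aligned to mm10 with TopHat2 2.0.13, and HTSeq 0.6.0 counted uniquely aligned reads per gene. The deposited values were these raw counts, which the authors did not normalize. The 5 HTSeq entries that name no gene were left out (reads in no gene were 16.4% to 59.7% and ambiguous reads at most 1.58% of a library). A deposited table of normalized values for the whole series was not used.

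Counts were scaled with TMM to normalized CPM, and differences were set on the log2(CPM + 1) scale. Tests used the quasi-likelihood method of edgeR 4.0.16 (R 4.3.3) on genes that reached 10 counts in 12 or more libraries (FC), 4 or more (NS) or 3 or more (HC and all other fits), with Benjamini-Hochberg adjustment over all genes tested, and with the mouse as a block in the fits within mice, since both libraries of a pair came from the same animal. A call needed an adjusted p under 0.05 and, except for the difference between training groups, an absolute log2 fold change over 1. DESeq2 1.42.0 was an alternative. The procedure was tested on simulated data with 100 genes changed at each size. At an absolute log2 fold change of 5 it recovered 86% of them within FC mice, 14% within NS mice and 0% within HC mice. For the difference between training groups it recovered 11%, and for NS against HC mice 18% (dVenus- cells) and 20% (dVenus+ cells). At a change of 2 it recovered 11% within FC mice and at most 1% elsewhere. The absence of a call thus does not show the absence of a change. No library pair was identical. Limits set from a count of 0 cover counting error only, and intervals of fold changes come from the edgeR fits. Gene lengths came from GENCODE, and positions and promoter windows from RefSeq on GRCm38.p6. No promoter entry was used for *Hmox1*. The pathway genes *Flvcr1* and *Flvcr2* and the erythroid marker *Hbb-bs* were matched through older symbols.

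The members and lists were chosen with earlier results of these data known. Named besides the members were pathway genes called in a comparison, the gene with the highest counts of each list, and the 3 genes most like each member. The position of *Psmc4* and the genes near *Blvrb* were looked up after the values were seen.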

Additional observations from a re-analysis of the deposited data

Results flagged for a closer look

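In 9 sets of 4 NS values of the 4 genes, the gap between the most extreme value and the next was set against the whole range of the set, and 3 sets passed the 95% limit for such a gap. That limit is made for values with a normal spread, which CPM with many zeros need not have. How many sets would pass by chance is thus not known. The dVenus+ library of NS mouse 20 held 61.7 CPM of *Hmox2*, while the other NS dVenus+ libraries held 0.467, 2.02 and 4.77 CPM. The dVenus- library of the same mouse also had the highest *Hmox2* level of its group, at 104.4 CPM. The dVenus- library of NS mouse 19 held 12.8 CPM of *Blvrb*, while the others held 0, 0 and 0.720 CPM. The within-mouse log2 difference of *Blvrb* in NS mouse 19 was 0.17, while those of the other NS mice were 5.33, 5.74 and 6.33. Mouse 19 thus stood apart in *Blvrb* in both its dVenus- level and its difference, which are not independent of each other.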

How the results depend on the processing

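Leaving out each mouse in turn gave 292 to 405 calls in FC mice beside 422, 0 to 2 in NS mice beside 4, 0 in HC mice, 0 to 2 for the difference between training groups, 0 to 8 for NS against HC mice in dVenus- cells and 0 in dVenus+ cells. In the difference between training groups only NS and HC mice were left out. In FC mice DESeq2 called 1651 genes, the older quasi-likelihood method of edgeR (an alternative added after the data were seen) 137, the experiments with 6 and with 4 mice alone 15 and 12, and the fit without mice 06, 07 and 14 (also added later) 154. In NS mice the counts were 11 with DESeq2 size factors (5 higher, against 3 of 4), 1 without the count filter, 0 by the older method and 671 by DESeq2. In HC mice the older method called 2 genes and DESeq2 625, and DESeq2 called 1602 genes for the difference between training groups, 144 for NS against HC mice in dVenus- cells and 110 in dVenus+ cells.

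The mouse pairs libraries of the same animal. Without the replicate block 487 genes were called in FC mice, 13 in NS mice and 0 in HC mice. The log2 fold change of *Blvrb* in FC mice lay between 5.37 and 6.29 whichever mouse was left out. Other settings moved it further, to 4.635 without the mouse block and 4.61 in the experiment with 6 mice alone. It was 6.82 by the older method and 7.13 by DESeq2. The mean within-mouse difference of each member kept its size within 1 SD with a pseudocount of 0.1 or 5, without TMM and without mouse 03. Signs that turned when 1 mouse was left out were those of *Blvra* within NS mice (-2.43 to 0.99), within HC mice (-1.05 to 3.06), in the difference between training groups (-0.61 to 1.35) and in NS against HC dVenus- cells (-1.05 to 1.10), *Hmox2* in the latter (-1.20 to 0.72) and *Blvrb* in NS against HC dVenus+ cells (-0.25 to 7.30). The causes were not tested. With 3 or 4 mice a group and 10 cells a library, the spread between libraries limits what the NS and HC comparisons can show.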
